A study of Homo sapiens with 22 samples.

Results

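Broad regions of estrogen receptor alpha (ESR1) binding are stretches of the genome of at least 2000 bp that are covered by overlapping ESR1 peaks. They were obtained by merging the peaks of 20 libraries on chromosomes 1 to 22 and X wherever peaks shared at least 1 bp, and by keeping merged regions of 2000 bp or more with a peak in at least 2 libraries. This gave 1389 broad regions of 93599 merged regions, or 1.48%. They held 28155 of 356437 peaks (7.90%) and 7.56% of the sequence covered by any peak. The regions they were set against were the 51213 narrower regions with a peak in at least 2 libraries, and the other 40997 regions had a peak in 1 library. No region of 2000 bp or more had a peak in a single library. The regions were chosen by the measured extent of their peaks and the number of lists with a peak, so their width, their peak content and their contrast with narrower regions in the same 20 libraries are given as descriptions without a test.

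The data are chromatin immunoprecipitation sequencing (ChIP-seq) peak lists from Ishikawa cells, a line from an endometrial adenocarcinoma, in which ESR1 carries a FLAG epitope tag and was precipitated with an antibody to FLAG. ESR1 was wild type in 2 clones and carried the D538G substitution in 3 clones. All cells were kept for at least 5 days in hormone-deprived medium (without phenol red, with charcoal-stripped serum) and then received 10 nM estradiol (E2) or 0.1% DMSO, its solvent, for 1 h. With 2 replicates per clone and treatment, there were 4 lists for wild type with DMSO, 4 for wild type with E2, 6 for D538G with DMSO and 6 for D538G with E2. Each genotype was thus seen only through a few clonal lines, and the libraries of a clone are not independent of each other. The labels do not say whether replicates came from separate cultures, so p-values over libraries measure the spread between these libraries, which may be technical. The comparisons ask how the substitution changes where ESR1 sits in the genome.

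ESR1 is a nuclear receptor that binds DNA as a dimer at estrogen response elements, and also reaches DNA through other transcription factors. E2 changes the position of the last helix of the ligand-binding domain so that coactivators can dock, and it increases the occupancy of many sites. D538G lies close to the start of that helix, is found in hormone-dependent breast and endometrial cancers and is known for receptor activity without hormone. A peak is a stretch where the peak caller found more reads than expected, and its summit is the single position of highest signal within it. Several summits of the same list in a region thus mark several local maxima. Numbers of summits given for a region are summed over all lists, so a maximum shared by several lists is counted once per list.

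The lists differed in length by a wide margin, which touches each result that follows. Wild type with DMSO had lists of 50, 29117, 44 and 1080 peaks, so that clone 1 replicate 2 stood apart from the other three. Wild type with E2 had 8206, 35340, 5757 and 31105 peaks. The D538G lists ran from 1619 to 54895 peaks with DMSO (median 11404.5) and from 1976 to 49219 with E2 (median 16198.5). Read depth is not given in the sources used here, so a short list from few reads cannot be told apart from one with few bound sites. The peak names in 6 lists include a form of the abbreviation Ctl. Of these, 5 are labelled DMSO, and 1, D538G clone 2 replicate 1, is labelled E2, so its name goes against its label. Group differences in presence and in the strongest peaks that use either library are given with and without it. For the D538G list its DMSO partner was left out too. The lists are in hg19 coordinates per the submitters' processing notes, and coordinates are written 1-based. Genes and sequence under the regions were not analysed here.

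The width of broad regions had a median of 2411 bp, quartiles of 2168 and 2947 bp and a maximum of 13057 bp, against a median of 580 bp in narrower regions. At the limit itself, chr17:34899892-34901891 was just inside with 2000 bp, 8 lists and 15 summits, and chr16:85361537-85363537 had 2001 bp, 11 lists and 21 summits. Just outside, each 1 bp short of the limit, chr2:129026385-129028383 had 15 lists and 19 summits, and chr4:77378908-77380906 had 14 lists and 21 summits. The values on both sides of the limit were thus of the same order, and 2000 bp is a place on a continuum.

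The 5 widest regions each lay on a different chromosome. The widest of all was chr1:1094687-1107743, with 13057 bp, 56 summits and peaks in 17 lists. It was followed by chr17:80393009-80404912 with 11904 bp, 76 summits and 18 lists. The region chr4:3462347-3473468 had 11122 bp, 72 summits and 19 lists. Next in width was chr12:34485854-34496214, with 10361 bp, 56 summits and 18 lists, and then chr16:88986825-88995822, with 8998 bp, 67 summits and 19 lists. All 5 had peaks in every wild-type E2 list and every D538G E2 list, and in 2 or 3 of the 4 wild-type DMSO lists. A different region, chr1:17033741-17040964, had the most summits, 78 in 7224 bp, and chr19:5891086-5898452 had 61 summits in 7367 bp with a peak in all 20 lists.

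**Figure D1:**
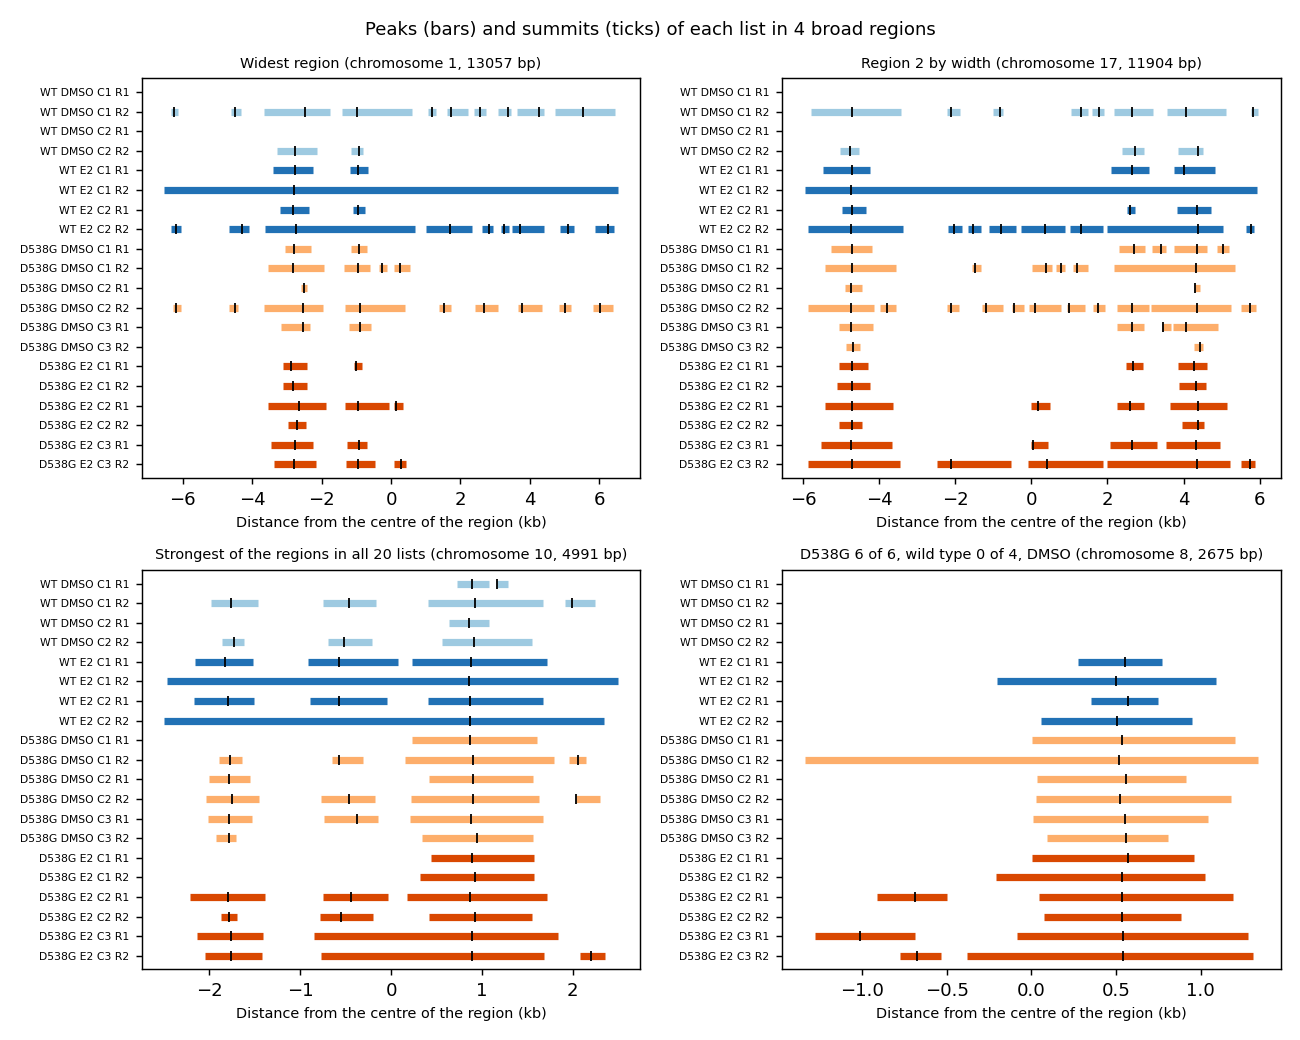
Peaks (bars) and summits (ticks) of each of the 20 lists, 1 line per list, against the distance from the region's centre in kb, for the widest region, the next by width, the strongest region with a peak in all 20 lists, and the region of highest mean percentile among the 24 with a peak in all 6 D538G and none of the 4 wild-type DMSO lists. In the widest region wild-type E2 clone 1 replicate 2 has 1 peak of 13057 bp where wild-type E2 clone 2 replicate 2 has 9 separate peaks.

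How a list divided such a region into peaks varied between libraries of one group. In the widest region, wild-type E2 clone 1 replicate 2 had a single peak of 13057 bp that filled it. Wild-type E2 clone 2 replicate 2 had 9 peaks in the same region, of which the widest was 4329 bp. Replicate 1 with E2 had 2 peaks there in each wild-type clone, of at most 1129 bp in clone 1 and 820 bp in clone 2. Most lists shared a pair of maxima left of the middle, and the outer flanks were covered in a few of the long lists, as the map of peaks and summits shows. A like division was seen at chr17:80393009-80404912, where wild-type E2 clone 1 replicate 2 had 1 peak of 11891 bp and D538G DMSO clone 2 replicate 2 had 11 peaks.

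Most broad regions owed their extent to a few libraries. A single peak of 2000 bp or more was found in 970 regions (69.8%), but in at least 2 lists in only 470 (33.8%). In 419 regions (30.2%) no peak reached 2000 bp, and the width arose from peaks of different lists that overlapped in a chain. The widest peak came from D538G DMSO clone 1 replicate 2 in 578 regions (41.6%) and from wild-type E2 clone 1 replicate 2 in 563 (40.5%). D538G E2 clone 3 replicate 2 gave the widest peak in another 113 (8.14%). The first of these 3 lists had 607 peaks of 2000 bp or more, the next 617 and the last 233. The longest list, D538G DMSO clone 2 replicate 2, had 78. Leaving out a library and merging again gave between 1066 and 1389 broad regions.

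Each list placed on average between 1.23 and 2.42 summits in a broad region in which it had a peak, against 1.00 to 1.14 in a narrower one. In wild type with DMSO the values were 1.31, 2.17, 1.24 and 1.23, and with E2 they were 1.52, 1.48, 1.43 and 1.71. In D538G they ran from 1.24 to 2.42 with DMSO (median 1.48) and from 1.23 to 2.15 with E2 (median 1.49). With DMSO the group mean was 1.49 ± 0.458 in wild type (SD, n = 4) and 1.58 ± 0.435 in D538G (SD, n = 6). With E2 it was 1.53 ± 0.126 in wild type (SD, n = 4) and 1.57 ± 0.328 in D538G (SD, n = 6). The 4 groups overlapped throughout, and these group differences were not tested.

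**Figure D2:**
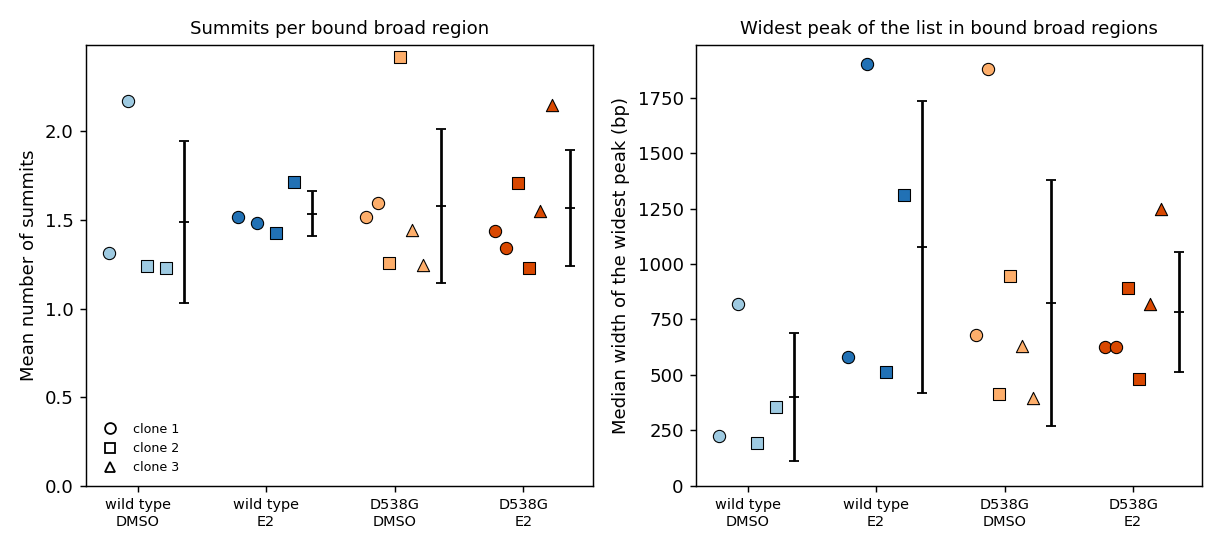
Mean number of summits per broad region with a peak (left) and median width in bp of the list's widest peak in such regions (right), 1 point per list by group, with the group mean ± SD as a bar. Summit numbers of 2.17 and 2.42 stand above the rest of the DMSO lists of wild type and D538G, and 2 lists of different groups have a median widest peak of 1900 and 1880.5 bp.

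Summits of different lists were grouped by place. Summits within 200 bp of the next were joined into 1 summit position, and positions with summits from at least 2 lists were counted. Densely placed summits can be joined in this way without agreement between lists, and no baseline was computed. A broad region had a median of 3 positions and at most 12, and 1282 of 1389 (92.3%) had at least 2, against 6238 of 51213 narrower regions (12.2%). The number was 2 in 450 broad regions, 3 in 489, 4 in 214 and 5 or more in 129, and 107 had a single position. Neighbouring positions were a median of 746.5 bp apart (2676 distances) in broad regions. Per length, the median over all lists was 7.29 summits per 1000 bp in broad regions and 7.52 in narrower ones.

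The place of the strongest summit was set side by side between groups. For regions with a peak in at least 2 lists of each group, the strongest-summit positions of the groups lay within 200 bp of each other in 74.2% of 1315 broad regions for D538G with E2 and with DMSO, against 88.9% of 16455 narrower ones. Between D538G with DMSO and wild type with E2 it was 64.7% of 1351 broad regions, against 85.1% of 18207 narrower ones. A wider region leaves more room for such a shift, and these shares are descriptions.

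The comparison of broad with narrower regions was tested in libraries that had no part in defining them. For each library in turn, regions were merged from the other 19 lists, and the left-out list was then read in the regions that were broad or narrower by the same rule. The left-out list had a peak in a mean of 60.0% of broad regions and 24.9% of narrower ones, a difference of 35.1 ± 16.1 percentage points (SD over 20 libraries). Within a list, peaks were ranked by the authors' signal value from the weakest up, with tied peaks given their mean rank. The percentile rank of a peak is this rank as a percent of the list's number of peaks. The strongest peak of the left-out list in a broad region had a mean percentile of 70.8, against 52.9 in a narrower one, a difference of 17.9 ± 7.26. The left-out list placed 1.54 summits in a broad region and 1.04 in a narrower one, a difference of 0.498 ± 0.295. Each difference was higher in broad regions in 20 of 20 libraries, with a permutation p of 1e-05 (two-sided, 100000 sign changes, the smallest they can give) and an adjusted p of 1e-05 over these 3 measures. With the 5 clone means as units the exact permutation p was 0.0625 for each, the smallest that 5 clones allow. Other libraries of the same clone stayed among the 19 lists, and the 20 differences rest on nearly the same regions. Over all lists, broad regions had a peak in a median of 11 lists and narrower ones in 4. The 2 kinds were not matched for number of lists, so these tests cannot separate width from how often a region is bound.

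A wider region overlaps more peaks by its size, so values per length were set beside these. Per 1000 bp the left-out list had 0.524 ± 0.148 summits in bound broad regions and 1.12 ± 0.161 in bound narrower regions (SD over 20 libraries). Only regions with a peak enter, so short regions have high values by their length, and these values do not correct for width. Against only those narrower regions that reached 1000 bp, the differences were 16.4 points in presence, 10.5 in percentile and 0.425 in summits. When the mean over all peaks of the region took the place of the strongest peak, the percentile difference was 10.8 and was above 0 in 19 of 20 libraries, with wild-type DMSO clone 2 replicate 1 at -0.0631.

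Broad regions fell into 2 humps by the number of lists with a peak. Between 6 and 10 lists had a peak in 605 regions (43.6%), with the highest count, 166, at 8 lists. Between 13 and 18 lists had a peak in 602 regions (43.3%), with the highest count, 172, at 18 lists. Only 24 regions had a peak in 2 to 5 lists. Of narrower regions 4.70% had a peak in 13 or more lists, against 44.9% of broad regions, and of the 15 regions of the genome with a peak in all 20 lists, 10 were broad.

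**Figure D3:**
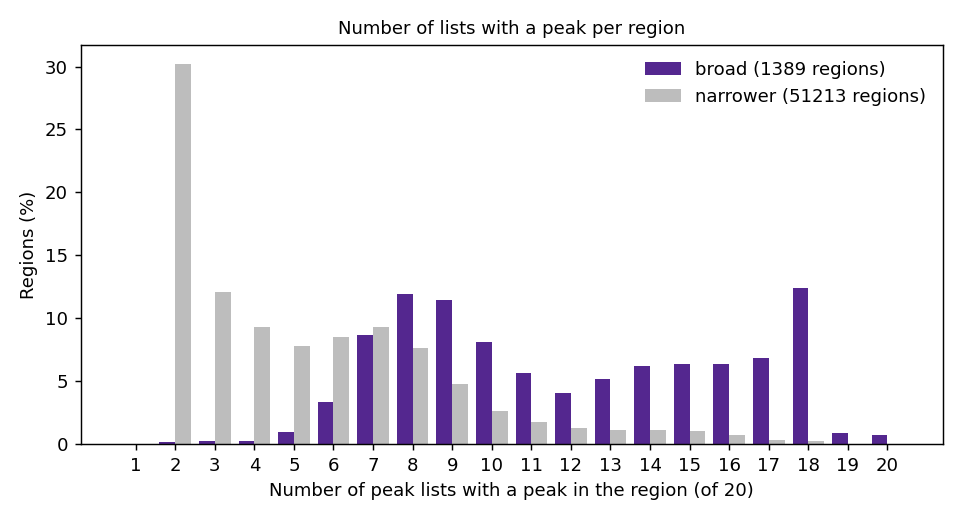
Percent of broad (purple, 1389) and narrower (grey, 51213) regions by the number of lists with a peak in the region. Broad regions have maxima at 8 and at 18 lists, whereas 30.2% of narrower regions have a peak in 2 lists.

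The humps were described by a division between 12 and 13 lists, which was chosen after the counts were seen and is given without a test. The 765 regions with 12 or fewer lists had a median width of 2317 bp and 15 summits, and 57.1% of them held a peak of 2000 bp or more. The 624 regions with 13 or more lists had a median of 2617 bp and 24 summits, and 85.4% held such a peak. All regions over 5697 bp were among the latter. Summits are summed over lists, so regions in more lists have more of them. Per list with a peak, the median was 1.71 summits in the regions with 12 or fewer lists and 1.53 in the others. Both classes had a median of 3 summit positions. Width and number of lists also moved together over finer steps. The 769 broad regions under 2500 bp had a peak in a median of 10 lists, and the 114 of 4000 bp or more in a median of 17.

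The share of the regions in 12 or fewer lists that had a peak differed widely between lists. Wild-type E2 replicate 2 lists, with 35340 and 31105 peaks, had a peak in 98.8% and 95.3% of them, whereas the replicate 1 lists of the same clones, with 8206 and 5757 peaks, had one in 11.8% and 3.40%. Of the regions in 13 or more lists, those replicate 1 lists had a peak in 97.8% and 88.3%. The shares were lower in the shortest lists, at 59.0%, 49.2% and 53.5% in those of 1080, 1619 and 1976 peaks and 2.56% and 3.37% in those of 50 and 44. Of the 765 regions in 12 or fewer lists, 754 (98.6%) had no peak in any wild-type DMSO list other than clone 1 replicate 2, which itself had a peak in 92.9% of them.

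Lists of like length are set side by side here. In D538G clone 1 replicate 1 the DMSO list had 12961 peaks and the E2 list 12566. The DMSO list had a peak in 66.5% of the regions found in 12 or fewer lists and the E2 list in 15.7%, while both had a peak in 20.9% of narrower regions. The D538G E2 lists of clone 2 and clone 3 replicate 1 had 21869 and 19831 peaks, and 90.1% and 48.2% of these broad regions. The first of that last pair is the list whose peak names go against its label. Each is a contrast of 2 libraries with no replicate check. D538G DMSO clone 3 replicate 1, with 9848 peaks, had a peak in 40.5% of these regions. The part of list length in the shares was not tested. The lists with 66.5% and 90.1% are the only ones with Ctl_Flag_vs_Input in their peak names. Names in the list with 15.7% also include Input, as do those in D538G DMSO clone 2 replicate 1, which had 3.27%. How these names relate to peak calling is not given in the sources used here, and their part was not tested.

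**Figure D4:**
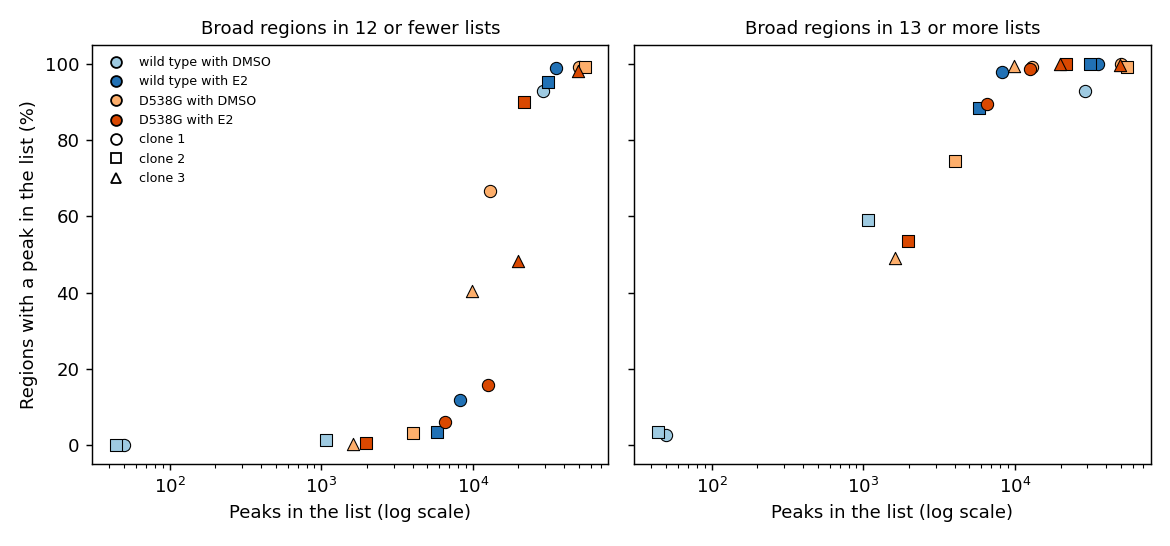
Percent of broad regions with a peak in a list against the number of peaks in the list (log scale), for regions in 12 or fewer lists (left) and 13 or more lists (right), 1 point per list. On the left the shares stay at or under 15.7% in 10 lists and reach 90.1% or more in 7, and on the right 14 lists are above 88%.

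Presence by group came next. The group tests here and below use the same lists that set which regions were broad, so they are not independent of that choice. Wild-type E2 clone 1 replicate 2 gave the widest peak in 563 broad regions and wild-type DMSO clone 1 replicate 2 in 18. In wild type with DMSO, 1.15%, 92.9%, 1.51% and 27.3% of broad regions had a peak in clone 1 replicates 1 and 2 and clone 2 replicates 1 and 2. In the same order with E2 the values were 50.4%, 99.4%, 41.5% and 97.3%. E2 was thus above its DMSO partner in 4 of 4 pairs of clone and replicate number, by 41.5 ± 26.5 points (SD, n = 4 pairs), although the groups overlapped through the high DMSO list. The group means were 30.7% ± 43.2 (SD, n = 4) with DMSO and 72.2% ± 30.5 (SD, n = 4) with E2, and the difference of 41.5 points did not pass the threshold (exact permutation p = 0.171, two-sided, adjusted p = 0.438 over 10 group comparisons). Without wild-type DMSO clone 1 replicate 2 the difference was 62.4 points (exact permutation p = 0.0571, adjusted p = 0.143).

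**Figure D5:**
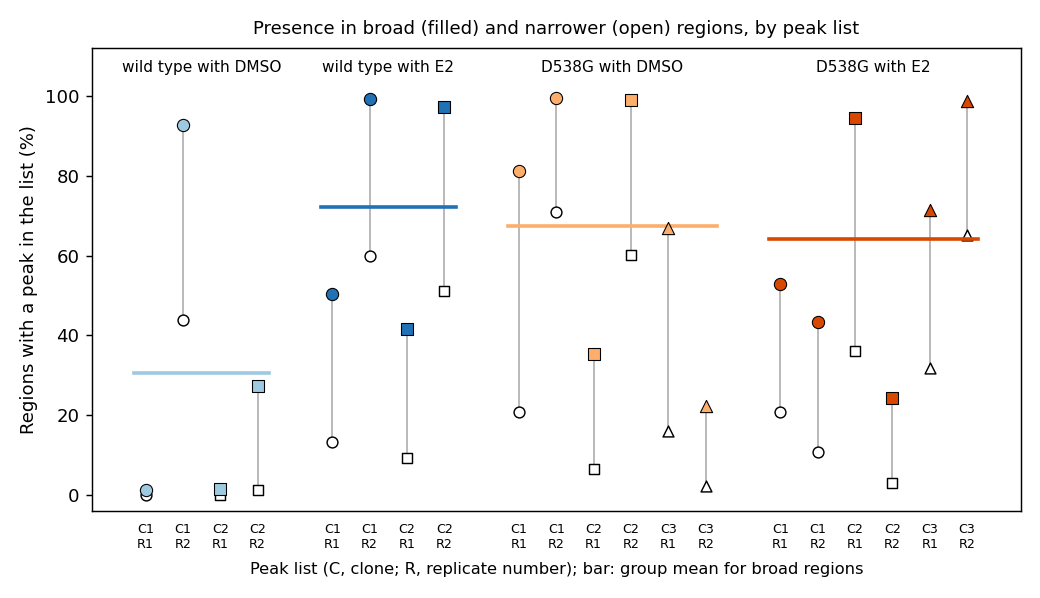
Percent of broad (filled) and narrower (open) regions with a peak, 1 pair of points per list, with the group mean for broad regions as a line. The filled point is the higher in each list, and the wild-type DMSO lists sit at 1.15, 92.9, 1.51 and 27.3%.

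In D538G the share of broad regions with a peak ran from 22.2% to 99.5% with DMSO (median 74.1%) and from 24.4% to 98.8% with E2 (median 62.2%). The ranges covered each other almost entirely. E2 was the higher in 3 of 6 pairs, with differences between -74.7 and 76.6 points. The group means were 67.4% ± 32.5 (SD, n = 6) and 64.3% ± 29.4 (SD, n = 6), a difference of -3.11 points (exact permutation p = 0.870, adjusted p = 0.870). It was -15.6 points without the pair of D538G clone 2 replicate 1 lists (exact permutation p = 0.437, adjusted p = 0.546), and 11.8 within replicate 1 against -18.0 within replicate 2.

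Here and below, p-values for genotype count libraries as units, although genotype varied only between 3 D538G and 2 wild-type clones. Between genotypes under DMSO the mean was 36.7 points higher in D538G than in wild type (exact permutation p = 0.148, adjusted p = 0.438). It was 59.8 points within replicate 1 and 13.5 within replicate 2. Without wild-type DMSO clone 1 replicate 2 the difference was 57.5 points, with an exact permutation p of 0.0476 before and 0.143 after adjustment. Without the D538G clone 2 replicate 1 pair it was 43.1 points (exact permutation p = 0.119, adjusted p = 0.343). Under E2 the mean of D538G minus that of wild type was -7.88 points (exact permutation p = 0.686, adjusted p = 0.762), with 27.0 within replicate 1 and -42.8 within replicate 2. It was -13.9 without the clone 2 replicate 1 pair (exact permutation p = 0.532, adjusted p = 0.591). The E2 effect in D538G minus that in wild type was -44.6 points (exact permutation p = 0.219, adjusted p = 0.438), so it did not pass the threshold, and it was -57.0 without the clone 2 replicate 1 pair (exact permutation p = 0.127, adjusted p = 0.343) and -56.3 without wild-type DMSO clone 1 replicate 2 (exact permutation p = 0.190, adjusted p = 0.286). Narrower regions moved with the broad ones, at group means of 11.3%, 33.4%, 29.5% and 27.9%, as did the number of peaks in the lists, whose part in these differences was not tested.

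Each list was then held to its 1000 strongest peaks, and the share of these that lay in broad regions was taken. The 1000 are most of the lists of 1080, 1619 and 1976 peaks and a small part of the longest, of 54895 peaks. The share was 42.0%, 19.6%, 59.1% and 43.9% in wild type with DMSO, where the lists of 50 and 44 peaks enter whole. With E2 it was 27.4%, 37.0%, 26.3% and 39.4%, with the higher values in the lists of 35340 and 31105 peaks. In D538G it ran from 21.4% to 37.1% with DMSO (median 29.1%) and from 21.9% to 34.8% with E2 (median 25%). All 4 groups overlapped, and the 3 short wild-type DMSO lists had the highest values. In wild type the mean was 41.1% ± 16.3 with DMSO and 32.5% ± 6.64 with E2 (SD, n = 4 each). In D538G it was 29.4% ± 5.44 with DMSO and 27.3% ± 5.95 with E2 (SD, n = 6 each). The differences were -8.62 points for E2 in wild type and -2.03 for E2 in D538G (exact permutation p = 0.400 and 0.537, adjusted p = 0.667 and 0.671). D538G differed from wild type by -11.8 points under DMSO and -5.19 under E2 (exact permutation p = 0.129 and 0.200, adjusted p = 0.438 for both). The wild-type E2 difference was -23.7 within replicate 1 and 6.45 within replicate 2. The E2 effect in D538G was 6.59 points above that in wild type (exact permutation p = 0.533, adjusted p = 0.671).

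These differences depended on single wild-type DMSO lists. Without clone 1 replicate 2 the E2 difference in wild type was -15.8 points (exact permutation p = 0.0571, adjusted p = 0.143). Leaving out clone 2 replicate 1 instead, the list of 44 peaks, gave -2.64 (exact permutation p = 0.771, adjusted p = 0.870). The genotype difference under DMSO was -19.0 without the former (exact permutation p = 0.0119, adjusted p = 0.119) and -5.80 when the latter was left out (exact permutation p = 0.369, adjusted p = 0.738). The difference in E2 effect was 15.4 without the former (exact permutation p = 0.131, adjusted p = 0.262) and -1.47 when the latter was left out (exact permutation p = 0.821, adjusted p = 0.870). Without the D538G clone 2 replicate 1 pair, the E2 difference in D538G was -5.06 points, and D538G differed from wild type by -10.3 under DMSO and -6.67 under E2 (exact permutation p = 0.135, 0.214 and 0.159, adjusted p = 0.343, 0.357 and 0.343). The difference in E2 effect was then 3.61 (exact permutation p = 0.762, adjusted p = 0.762).

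Broad regions with a peak in every library of a group were counted next. Every wild-type E2 list had a peak in 575 broad regions (41.4%) and in 7.96% of narrower ones. Every D538G DMSO list had one in 289 broad regions (20.8%, against 1.13% of narrower ones), and every D538G E2 list in 332 (23.9%, against 1.78%). In wild type with DMSO, where 2 lists held 50 and 44 peaks, it was 11 (0.792%, against 0.00976% of narrower ones). At least 2 lists had a peak in 1381 broad regions for D538G with DMSO (99.4%, against 49.1% of narrower ones). For wild type with E2 it was 1353 (97.4%, against 49.3%).

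Regions confined to a genotype or a treatment were rare among broad regions. Peaks in D538G lists only were found for 7 broad regions (0.504%), against 14366 narrower regions (28.1%). No broad region had peaks in wild-type lists only, in E2 lists only or in DMSO lists only, where narrower regions numbered 815, 5215 and 3570. Broad regions had peaks in a median of 11 lists and narrower ones in a median of 4, and the part of that in these shares was not tested.

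Single regions were then compared by how many libraries of each group had a peak there. Fisher's exact test (two-sided) was run on all merged regions that at least 2 of the libraries at hand had a peak in, with Benjamini-Hochberg adjustment over them. Past the adjusted threshold of 0.05 there were 0 broad regions in each of the 4 comparisons. The smallest Fisher's exact p over all regions was 0.0286 for E2 in wild type, 0.0152 for E2 in D538G and 0.00476 for each genotype comparison. With so many regions tested, such p-values pass adjustment only if a large share of regions reach them. The counts of 0 therefore do not show that the groups were alike. In wild type, 36 of 1367 broad regions (2.63%) reached an unadjusted p under 0.05 for E2 over DMSO and none for DMSO over E2, and the share was 9.34% over all regions tested. That count was 216 without wild-type DMSO clone 1 replicate 2, which has a peak in most broad regions. It was 0 in a paired test by clone and replicate number, which 4 pairs cannot pass. A share over all regions is not given for these 2 alternatives, so the change is not known to be particular to broad regions. In D538G the count was 0 of 1388 for the same contrast, against 0.0200% of all regions.

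For D538G against wild type under DMSO, 100 of 1383 broad regions (7.23%) reached an unadjusted p under 0.05, each of them bound in more D538G lists, against 3.57% of all regions. Of these, 94 had a peak in 13 or more lists, and 24 had a peak in 6 of 6 D538G lists and 0 of 4 wild-type lists, a pattern shown by 238 of the 30786 other regions tested. The count was 188 without wild-type DMSO clone 1 replicate 2, 197 without D538G DMSO clone 3 replicate 2, and 42, 43 and 49 without wild-type DMSO clone 1 replicate 1, clone 2 replicate 1 and clone 2 replicate 2. Leaving out a list also changes which patterns of presence can reach an unadjusted p under 0.05. The share over all regions is not given for these counts, so the changes are not known to be particular to broad regions. Over all 1383 regions the share of libraries with a peak was higher in D538G in 1360 (98.3%, against 82.2% of all regions tested). The lists of 50 and 44 peaks enter this comparison, and their length and the genotype difference cannot be told apart in them. The regions were also broad by the extent of peaks in the lists compared here. D538G DMSO clone 1 replicate 2 gave the widest peak in 578 broad regions and wild-type DMSO clone 1 replicate 2 in 18. The part of that choice in the share of 7.23% was not tested. Under E2, 3 of 1385 broad regions (0.217%) reached an unadjusted p under 0.05, each higher in D538G, against 1.21% of all regions, made up of 0.325% higher and 0.890% lower. Over all 1385 regions the share of libraries with a peak was lower in D538G in 715 and equal in 499. It was higher in D538G in 171 (12.3%, against 21.7% of all regions tested).

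A full contrast by genotype was seen at chr9:138270156-138273124, of 2969 bp with 13 summits at 1 shared position. It had a peak in 6 of 6 D538G DMSO lists and 6 of 6 D538G E2 lists, and in 0 of 4 wild-type lists with DMSO and 0 of 4 with E2. The percentile rank of its strongest peak ran from 88.1 to 99.9 with DMSO (median 99.7) and from 81.1 to 99.998 with E2 (median 99.1). It was thus among the strongest peaks of nearly all D538G lists, in all 3 clones, and without a peak in the wild-type E2 lists of 35340 and 31105 peaks. Fisher's exact p was 0.00476 under DMSO (adjusted p = 0.585) and 0.00476 under E2 (adjusted p = 1), the smallest that 6 libraries against 4 allow. In the whole set of merged regions 4 showed a peak in all 12 D538G lists and none of the 8 wild-type lists, and this was the only broad one. A neighbour, chr9:138287827-138290807, was also among the 7 broad regions with D538G peaks only, with peaks in 5 lists, and was picked after its values were seen.

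The region chr8:22594910-22597584 (2675 bp, 19 summits) was 1 of the 24 with a peak in 6 of 6 D538G lists and 0 of 4 wild-type lists under DMSO, which share 1 p, and had the highest mean percentile of them. Its percentile rank ran from 94.6 to 99.994 in D538G with DMSO (median 99.9) and from 97.4 to 99.9975 with E2 (median 99.9). With E2 the wild-type lists had it at 89.9, 96.7, 90.1 and 95.4. This region was therefore bound in wild type with E2, and in D538G with and without it. Fisher's exact p was 0.00476 for genotype under DMSO (adjusted p = 0.585) and 0.0286 for E2 in wild type (adjusted p = 0.306).

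The same arrangement was seen at chr17:54967647-54969664 (2018 bp, 17 summits at 1 position). Wild-type lists had no peak with DMSO, and with E2 they had it at percentiles of 88.4, 88.0, 85.6 and 89.2. D538G lists had it at 97.7 to 99.8 with DMSO and at 93.1 to 99.7 with E2, so the D538G values lay above all 4 wild-type E2 values. At chr6:169337147-169339917 (2771 bp, 26 summits) the wild-type E2 lists ran from 93.3 to 98.0 and the D538G DMSO lists from 85.4 to 98.6, and these overlapped. Both had a peak in 4 of 4 wild-type E2 lists and 0 of 4 with DMSO (Fisher's exact p = 0.0286, adjusted p = 0.306).

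Under E2 the other regions that were higher in D538G were chr17:71545607-71547612 and chr17:27438654-27441000, each with a peak in 6 of 6 D538G lists and 1 of 4 wild-type lists (Fisher's exact p = 0.0333, adjusted p = 1). In the first, the one wild-type E2 peak had a percentile of 49.2 and the D538G E2 peaks ran from 48.9 to 99.8 (median 85.3). In the second, the wild-type E2 peak was at 50.6 and the D538G E2 peaks ran from 27.2 to 99.3 (median 94.5). In both, the lowest D538G E2 value was below the wild-type one. For E2 against DMSO in D538G the region with the smallest p was chr12:133080649-133082674, with a peak in 6 of 6 lists with E2 and 3 of 6 with DMSO (Fisher's exact p = 0.182, adjusted p = 1). In the other direction 4 broad regions shared the smallest p, and the 3 of highest mean percentile were chr1:1980665-1982951, chr1:1267407-1269809 and chrX:152988934-152991135, each with 0 of 6 lists against 2 of 6 with DMSO (Fisher's exact p = 0.455, adjusted p = 1). Under E2 these 3 also led those lower in D538G, with 0 of 6 lists against 2 of 4 in wild type (Fisher's exact p = 0.133). Under DMSO 5 broad regions had a lower share in D538G. Those named were chr20:34679837-34682007, chr1:1078690-1081371 and chr1:1264668-1267281, each with 2 of 6 lists against 2 of 4.

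At the other end stood the broad regions bound in every library. Of the 10 with a peak in all 20 lists, the strongest by mean percentile was chr10:549538-554528, with 4991 bp and 47 summits at 4 positions. Wild type with DMSO had it at percentiles of 96.0, 100, 95.5 and 97.4 and with E2 at 99.7, 99.4, 99.8 and 99.6. In D538G it ran from 93.9 to 99.9 with DMSO (median 98.1) and from 92.6 to 99.0 with E2 (median 97.7). It was near the top of each list, including those of 50 and 44 peaks, and the groups overlapped except that each wild-type E2 value was above each D538G E2 value.

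The other four strongest of these were chr2:70842805-70845341 (26 summits), chr19:3386524-3390835 (41), chr1:15302098-15305363 (34) and chr11:69064094-69068196 (33). Widths among them ran from 2537 bp, in the region on chromosome 2, to 4312 bp, in the one on chromosome 19. At chr19:3386524-3390835 the D538G lists had percentiles of 99.4 to 100 with DMSO and 97.0 to 99.99 with E2. Wild-type E2 lists had 93.9 to 99.0 and wild-type DMSO lists 63.6 to 100. The D538G DMSO values were thus above all wild-type E2 values there, whereas at chr10:549538-554528 these groups overlapped. These regions were picked for their presence, so the order of levels is a description.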

How the data were processed

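The 20 precipitated libraries each had 1 list of peaks in narrowPeak layout, and the 2 input libraries were not used here. Bowtie, MACS2, DESeq2 and hg19 are named in the submitters' processing notes, with no version and no role. Peaks were called per library. Each peak has a signal value made by the authors, whose reference is not given in the sources used here. The deposited −log10 p values all exceed 10 and served for a stricter list, and the deposited score column was not used. Reads and depth per library are not given, so the precision is known only through the lists, which held 44 to 54895 used peaks. Of 356472 peaks, 5 on the mitochondrial sequence and 30 on chromosome Y were set aside.

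Groups came from the labels. Merging (Python 3.11.15, NumPy 2.4.6, SciPy 1.17.1, pandas 2.3.3) gave the same regions as bedtools 2.31.1, and the tests were tested on simulated data. Group means were compared by exact two-sided permutation over libraries, the difference in E2 effect by permuting genotype over the 10 pairs, and held-out libraries by 100000 sign changes. Per-region tests were Fisher's exact tests. Adjustment was by Benjamini-Hochberg with a threshold of 0.05. E2 and DMSO libraries of the same clone and replicate number come from the same cell line and form pairs. Across genotypes only the number is shared. The fit without pairing is the main one, and the alternatives tried varied the width limit, the number of lists, the overlap, the stricter list, the ranking and the libraries used. The members, lists and tests were chosen with earlier results of these data known. Regions named are the 5 widest, the 5 with most summits, the 5 of highest mean percentile among those in most libraries, up to 3 per comparison and direction by smallest Fisher p, and the 2 on each side of the width limit.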

Additional observations from a re-analysis of the deposited data

Results flagged for a closer look

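Among the per-list values in broad regions, 24 combinations of group and measure were searched for a list that stood apart, and chance gives about 1 such list in 20 groups. Wild-type DMSO clone 1 replicate 2 placed 2.17 summits in a broad region with a peak, and the next of the 4 lists placed 1.31. D538G DMSO clone 2 replicate 2 placed 2.42, and the next of the 6 lists placed 1.60. The median width of the widest peak in a broad region was 1880.5 bp in D538G DMSO clone 1 replicate 2, and the next of the 6 lists had 944 bp. Outside the regions compared, 5 peaks lay on the mitochondrial sequence, in 3 lists.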

How the results depend on the processing

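Of 651 recomputed values, 608 kept their direction and side of the threshold or stayed within 1.5 times. No broad region passed the adjusted threshold in any alternative, but so few libraries make that threshold hard to reach. The number of broad regions was 3639 at 1500 bp and 326 at 3000 bp, and 1066 to 1389 on leaving out a library. The counts with an unadjusted p under 0.05 for E2 in wild type, genotype under DMSO and genotype under E2 were 165, 268 and 9 at 1500 bp, 3, 22 and 0 at 3000 bp, and 10, 61 and 38 with presence read from the 1000 strongest peaks of each list. Leaving out 1 library gave 20 to 216, 42 to 197 and 1 to 7. The lowest and highest of the first came without D538G DMSO clone 1 replicate 2 and wild-type DMSO clone 1 replicate 2. The 7 came without wild-type E2 clone 1 replicate 2 or D538G E2 clone 2 replicate 2, and the 1 without any of the other 3 wild-type E2 lists. Shares over all regions are not given for the counts under these alternatives, so the changes are not known to be particular to broad regions. With the replicate block (paired by clone and number) the count for E2 in wild type was 0, the paired difference in presence stayed at 41.5 points (exact permutation p = 0.125), and no call changed. The E2 difference in presence in D538G turned to 0.307 points at 3000 bp, 0.0661 with −log10 p of at least 20, and 11.8 within replicate 1, with -12.1 to 4.87 on leaving out a library. The genotype difference under E2 turned to 27.0 within replicate 1, with -18.1 to 2.59 on leaving out a library. For the 1000 strongest peaks, genotype under E2 was 0.917 within replicate 1, E2 in wild type 6.45 within replicate 2, and the difference in E2 effect -10.02 within replicate 2 and -1.47 to 16.8 on leaving out a library. None of these passed the threshold, and the cause was not tested. With clone means as units the held-out differences were 35.1, 17.9 and 0.498 and no longer passed (exact permutation p = 0.0625), by the number of clones. Leaving out the D538G clone 2 replicate 1 pair and the mean over peaks were alternatives chosen after seeing the data. List length, for which no depth is known, limits every comparison of presence.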

Other observations

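Broad regions were unevenly spread over chromosomes and lay close to other regions. Per 100 regions with a peak in at least 2 lists, chromosome 14 had 4.28 broad ones, chromosome 22 had 3.93, chromosome 21 had 3.67 and chromosome 17 had 3.58. The lowest values were 1.00 on chromosome X, with 7 broad regions, and 1.28 on chromosome 18, with 13. The nearest other region was a median of 743 bp away from a broad region and 2962 bp from a narrower one. Another broad region lay within 10000 bp of 443 broad regions (31.9%) and within 1000 bp of 121 (8.71%). Gaps this short are of the order of the spacing between summit positions inside broad regions, so the number of broad regions depends on whether any list bridges them. These values are descriptions with no test.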
